A study of Homo sapiens with 5 samples.

Results

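The 9 genes described here encode proteases that cut the extracellular matrix, the plasminogen activator urokinase with its receptor, and secreted inhibitors of these enzymes. They are the matrix metalloproteinases MMP7, MMP10 and MMP14, the urokinase gene PLAU and its receptor gene PLAUR, the serpin SERPINE2, and the tissue inhibitors of metalloproteinases TIMP1, TIMP2 and TIMP3. They were taken by symbol from the platform table, which gave 13 probes of the 47306 on each array and 9 of the 20044 named genes. Detection of a probe on an array means a detection p-value below 0.01, and 10 of the 13 probes passed on at least 1 array. By gene, 4 members (MMP7, SERPINE2, TIMP1 and TIMP2) had a probe detected on all 5 arrays, 3 (MMP10, PLAU and PLAUR) were detected on some arrays, and 2 (MMP14 and TIMP3) were detected on none.

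RNA came from 5 cultures of human prostate cancer cells, with 1 array per culture. LNCaP is an androgen-responsive line, and LNRII is a stable line made from it with a puromycin-selected lentivirus that carries TGFBR2, a TGF-beta receptor, behind a CMV promoter, so its receptor is not under its own control. LNRII received the ligand TGFB3 at 5 ng/ml for 3 days or vehicle for 3 days. The other cultures were LNCaP with a lentiviral hairpin against FOXA1 (shFOXA1) at day 10, either with 3 days of 10 µM LY2157299, which blocks the kinase of the type I TGF-beta receptor, or without it, and LNCaP with a control hairpin (shCtr) at day 10. All infected cultures had been selected with puromycin, and the labels list every culture as wild type in genotype. Whether LNRII is 1 clone, and whether each LNCaP culture without LY2157299 received vehicle, is not stated for each array.

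Matrix metalloproteinases are zinc enzymes made as inactive precursors, and TIMP proteins block them by binding the active site. Urokinase, held at the cell surface by its receptor, turns plasminogen into plasmin, which cuts matrix and can activate metalloproteinase precursors. Transforming growth factor beta is known in many tissues as a regulator of both proteases and their inhibitors, and in prostate cancer these enzymes are studied for their part in invasion.

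The promoter windows of MMP7 and MMP10 are printed because these were the members with the largest differences, and both genes lie in the MMP gene cluster of chromosome 11. Each window runs from 250 bases before the annotated RefSeq transcript start through the first 50 transcribed bases, in GRCh38.p14, read on the minus strand at chr11:102530698-102530997 for MMP7 and at chr11:102780579-102780878 for MMP10. Capitals mark matches, on either strand, to TGANTCA (AP-1), AGGAAG (an ETS core), CAGAC (a SMAD core), TNTTTAC (forkhead, the family of FOXA1) and CTTTGAN (TCF).
MMP7: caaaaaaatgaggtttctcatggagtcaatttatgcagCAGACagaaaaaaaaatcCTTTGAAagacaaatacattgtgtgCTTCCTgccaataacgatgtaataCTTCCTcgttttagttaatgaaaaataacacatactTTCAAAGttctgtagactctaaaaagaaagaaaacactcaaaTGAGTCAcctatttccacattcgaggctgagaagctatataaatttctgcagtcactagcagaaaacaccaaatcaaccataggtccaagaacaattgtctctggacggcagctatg
MMP10: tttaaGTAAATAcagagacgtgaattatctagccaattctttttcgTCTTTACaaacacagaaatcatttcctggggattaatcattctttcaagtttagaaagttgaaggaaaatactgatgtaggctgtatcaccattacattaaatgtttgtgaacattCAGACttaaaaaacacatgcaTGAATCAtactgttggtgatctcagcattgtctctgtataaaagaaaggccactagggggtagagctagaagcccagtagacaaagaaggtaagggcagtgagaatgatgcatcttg

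Both windows hold an AP-1 match at the same distance from the start, from base -67 to base -61, spelled TGAGTCA in MMP7 and TGAATCA in MMP10. The MMP7 window also has 2 ETS matches, 2 TCF matches and 1 SMAD match. The MMP10 window has 2 forkhead matches and 1 SMAD match, and none of the matches overlap. Of the 9 genes, 8 have a window in the promoter table used here, all but TIMP2, and PLAU and SERPINE2 have 2 windows each, which makes 10. The AP-1 letters occurred in 3 of the 10 windows (those of MMP7, MMP10 and PLAUR), against 7.71% of all 35116 windows of this length. Forkhead letters occurred in 1 of the 10, that of MMP10, against 10.8% of all windows, and TCF letters in 1, that of MMP7, against 12.8%. ETS letters occurred in 4 of the 10, against 33.6% of all windows, and SMAD letters in 7 of the 10, against 45.3%. A further motif, the TGF-beta inhibitory element first described in a rat stromelysin gene, occurred in 4.82% of all windows and in 1 member window, that of the first PLAU start, as GTGTTGGTGA from base -30 to base -21. The SERPINE2 windows hold none of these letters. These are matches of letters only and are not measured binding sites.

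**Figure D1:**
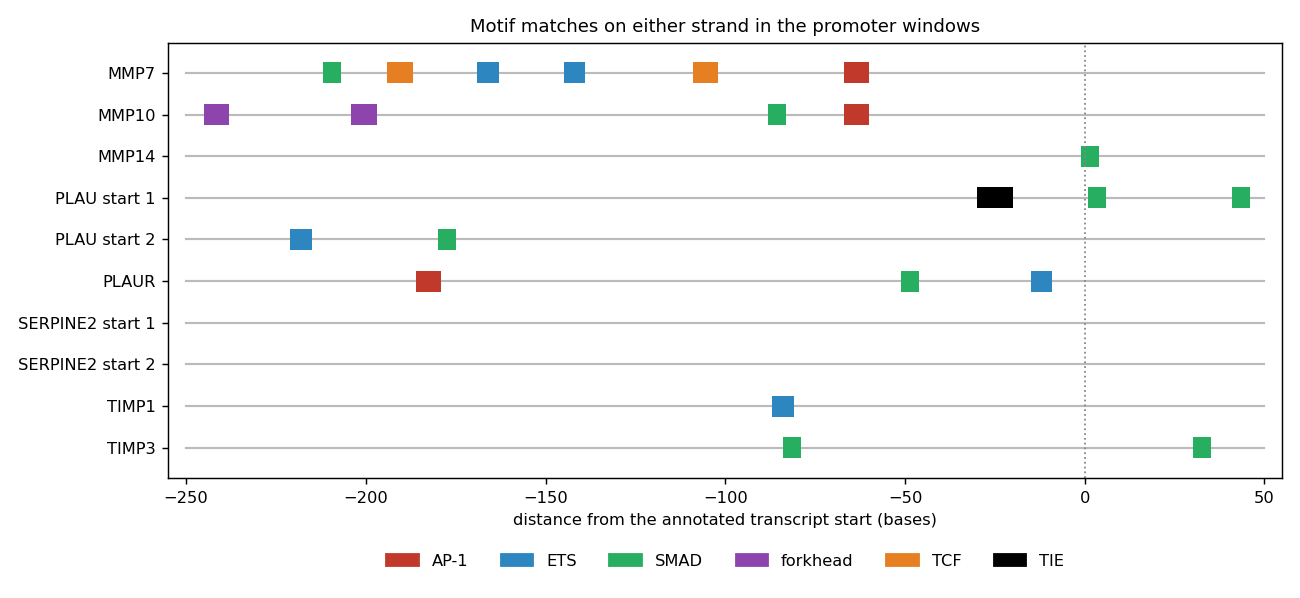
Motif matches in the RefSeq promoter windows of 8 members (TIMP2 was not analysed here), 1 line per annotated start, with the distance from the start in bases on the x axis and 1 colour per motif. The AP-1 matches of MMP7 and MMP10 stand at the same place, base -67 to base -61, and both SERPINE2 lines are empty.

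The share of the 47306 probes that were detected was lowest on the LNRII control array (32.3%) and highest on the shFOXA1 array (38.1%), with mean bead intensities from 278 to 310. The FOXA1 probe read 11.26 with shFOXA1 and 11.30 with shFOXA1 and LY2157299, against 11.82 with shCtr, as log2 intensity, so the mRNA that the hairpin targets was lower by 0.56 and short of 2-fold. It read 11.92 with TGFB3 and 11.81 in the LNRII control. Of 7 named luminal prostate markers, 7 were detected on all 5 arrays, among them KLK3 and HOXB13. Of 13 named markers of basal, fibroblast, endothelial and leukocyte cells, 7 were detected on no array, PTPRC, PECAM1, DCN and KRT5 among them, 4 on some arrays, and 2, VWF and CD68, on all. The endothelial marker VWF read 8.53 with TGFB3, against 7.09 in the LNRII control, and the leukocyte marker CD68 read 8.44 against 7.74. The endothelial gene CDH5 went the other way, at 4.20 with TGFB3, not detected, and 5.23 in the LNRII control, its 1 detected array. The fibroblast gene COL1A1 read 5.14 with TGFB3 and 4.86, not detected, in the control. The part of these markers in the results was not tested.

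With 1 array per condition no test between conditions exists, no difference has a replicate check, and precision is limited by how few arrays there are. Levels below are log2 intensities after background correction and quantile normalization, and differences are log2 differences between 2 arrays. Size alone decides a call: a gene counts as higher or lower when the arrays differ by 2-fold or more. The one error at hand is how far probes to 1 gene disagree. Its standard deviation for a log2 difference (probe SD) was 0.22 in the TGFB3 comparison, 0.17 in the knockdown comparison, 0.15 between knockdown cells with and without LY2157299, and 0.18 when the LY2157299 array was set against shCtr. It holds measurement error and says nothing about cultures grown in parallel. Where a probe was not detected on 1 of the arrays, that array was set to its lowest detected value (5.03 for the LNRII control, 4.67 to 4.72 for the others), or to the probe's own value if higher, and the difference is a bound. In a culture, more RNA per cell and more cells that make it cannot be told apart.

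TGFB3 in LNRII cells went with higher mRNA of MMP7. MMP10 was higher too, but it was detected on the TGFB3 array alone. The 3 inhibitor genes that were detected, SERPINE2, TIMP1 and TIMP2, had smaller positive differences. Of the 6 members detected on either LNRII array, 5 gave a value or a bound and 1, PLAUR, gave neither. MMP7 and MMP10 were at least 2-fold higher, and 0 members could be called 2-fold lower. Of all 10711 genes detected on either array, 1.87% were called 2-fold higher and 1.16% 2-fold lower, and 776 gave neither a value nor a bound. MMP10 and PLAUR entered the comparison through the TGFB3 array alone, so neither could have been called lower there. At 1.5-fold, 4 members were higher, SERPINE2 and TIMP2 being added, and 0 lower, where 6.6% of all genes were higher and 6.64% lower. The median over the 5 members with a value or bound, the MMP10 bound among them, was 0.96, where that over the 9935 such genes was 0.01.

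MMP7 encodes matrilysin, a small metalloproteinase made by epithelial cells. Its brighter probe had a bead intensity of 3493 with TGFB3 and 422 in the LNRII control. Among the LNCaP cultures the same probe read 1147 with shFOXA1 and LY2157299, 936 with shFOXA1 and 469.5 with shCtr. It was bright on every array, and the control arrays of both lines were the lowest. As log2 levels, the probe read 11.62 with TGFB3 and 8.59 in the LNRII control, a difference of 3.04, or 8.20-fold and 13.9 times the probe SD. The second MMP7 probe read 11.34 with TGFB3 and 8.38 in the control, a difference of 2.96, so the probes disagreed by less than the probe SD. Of the 10711 genes, 2 had a larger increase.

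MMP10 encodes stromelysin-2, a metalloproteinase that cuts several matrix proteins and activates other precursors. Its 1 probe had a bead intensity of 232 with TGFB3 and 102 in the LNRII control. It was not detected on any LNCaP array, where the intensity was 90.2 with shFOXA1 and LY2157299, 88.3 with shFOXA1 and 95.6 with shCtr. The gene was thus seen on the TGFB3 array only. Its log2 level there was 7.16, against 5.02 in the LNRII control, so TGFB3 gave a difference of at least 2.13, or at least 4.37-fold. The control value stood just outside the detection rule, at a detection p of 0.01039. The size depends on the background correction, as the difference was at least 1.04 without it and at least 2.89 in the authors' processed values.

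**Figure D2:**
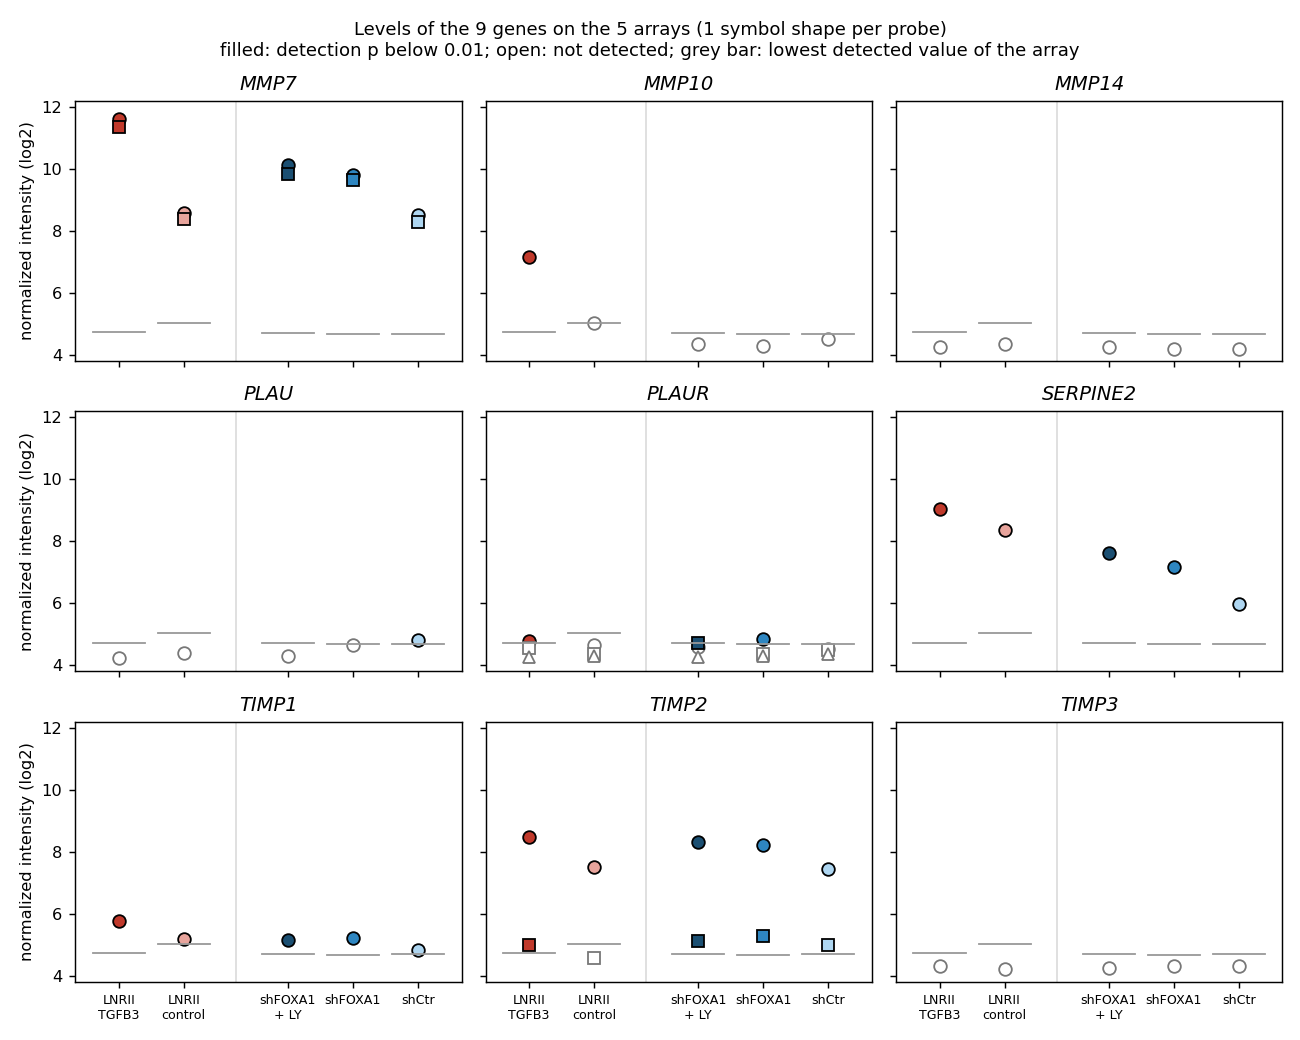
Log2 intensity of each of the 13 probes on the 5 arrays, 1 panel per gene and 1 symbol shape per probe. Filled symbols are detected at p below 0.01, open symbols are not, and grey bars mark the lowest detected value of each array. MMP7 stands far above the bars on every array, MMP10 on the TGFB3 array alone, and MMP14 and TIMP3 on none.

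Of the 4 inhibitor members, 3 stood higher with TGFB3 as well, short of 2-fold, and the fourth, TIMP3, was not detected. TIMP2 encodes an inhibitor that also takes part, with MMP14, in activating the MMP2 precursor. Its brighter probe read 8.46 with TGFB3 and 7.50 in the LNRII control, a difference of 0.96 that was 4.40 times the probe SD. Its dimmer probe was detected at 4.98 with TGFB3 and not detected in the control, where the lowest detected value was itself higher (5.03), so it gives no bound. TIMP1 encodes a broad metalloproteinase inhibitor. Its probe read 5.75 with TGFB3 and 5.18 in the control, a difference of 0.58, and its bead intensity was 132 with TGFB3 and 105 in the control, where the lowest detected intensity was 102. Without background correction the TIMP1 difference was 0.22. SERPINE2 encodes protease nexin-1, which inhibits thrombin, urokinase and plasmin. Its probe read 9.05 with TGFB3 and 8.37 in the control, a difference of 0.68 or 3.13 times the probe SD. Of the 10711 genes, 228 had a larger increase than TIMP2, 525 than SERPINE2 and 733 than TIMP1.

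Urokinase and its receptor were at the detection limit in LNRII. The PLAU probe was not detected with TGFB3 (bead intensity 87.2) or without it (89.6). Of 3 PLAUR probes, 1 was detected with TGFB3, at a log2 level of 4.78, below the lowest detected value of the control array, so no difference can be given. Neither MMP14, which encodes a membrane-bound metalloproteinase, nor TIMP3, whose inhibitor stays bound to the matrix, was detected. The MMP14 probe had 88.2 with TGFB3 and 88.5 without, and the TIMP3 probe 90.7 and 83.4. A change in these 4 genes was not detectable at this signal.

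Knockdown of FOXA1 in LNCaP cells went with higher mRNA of MMP7 and of the inhibitor SERPINE2, and with a smaller positive difference for TIMP2. MMP7 and SERPINE2 were at least 2-fold higher and 0 members could be called 2-fold lower, among 6 members measured, of which PLAU and PLAUR are bounds. Over all 11132 genes measured, 1.11% were 2-fold higher and 0.377% 2-fold lower. At 1.5-fold, 3 members were higher, TIMP2 being added, and 0 lower, where 3.31% of all genes were higher and 1.84% lower. The median over the 6 members was 0.59, where that of all genes was -0.01. Some markers of other cell types differed between the same arrays. CD68 read 8.79 with shFOXA1 and 7.95 with shCtr, the basal keratin gene KRT14 5.35 with shFOXA1 and 4.74 with shCtr, and VWF 6.08 with shFOXA1 and 6.57 with shCtr. LYZ, at 4.98, and COL1A1, at 4.70, were detected with shFOXA1 and not with shCtr, where they read 4.43 and 4.48. Their part in the member values was not tested.

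The brighter MMP7 probe read 9.80 with shFOXA1 and 8.52 with shCtr, a difference of 1.28 or 2.43-fold. The second probe read 9.65 and 8.29, a difference of 1.36. Both differences were over 7 times the probe SD, and 68 of the 11132 genes had a larger increase than the brighter probe. SERPINE2 had a bead intensity of 209.8 with shFOXA1 and 139.6 with shCtr. Its log2 level was 7.18 with shFOXA1 and 5.99 with shCtr, a difference of 1.19 or 2.28-fold, and 80 genes had a larger increase. SERPINE2 was short of 2-fold without background correction, where its difference was 0.68, and with a larger offset, where it was 0.88.

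TIMP2 read 8.20 with shFOXA1 and 7.43 with shCtr on its brighter probe, a difference of 0.77. The dimmer TIMP2 probe, with levels of 5.28 and 5.00, gave 0.28, so the probes disagreed by more than the probe SD. The mean over detected TIMP2 probes was 0.53, short of 1.5-fold. TIMP1 read 5.22 with shFOXA1 and 4.81 with shCtr, a difference of 0.41 that was 2.43 times the probe SD. Its bead intensity was 107.9 with shFOXA1 and 101.5 with shCtr, near the lowest detected intensity of each array (96.7 and 98.7). The TIMP1 difference was 0.13 without background correction and 0.20 with an offset of 50. PLAU was detected with shCtr alone, at 4.82, and its level with shFOXA1 of 4.65 stood just outside the rule (detection p of 0.01299), which gives a difference of -0.15 or lower. The brightest PLAUR probe was detected with shFOXA1 at 4.83 and not with shCtr (4.51), which gives at least 0.15. MMP10, MMP14 and TIMP3 were not detected on either array.

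**Figure D3:**
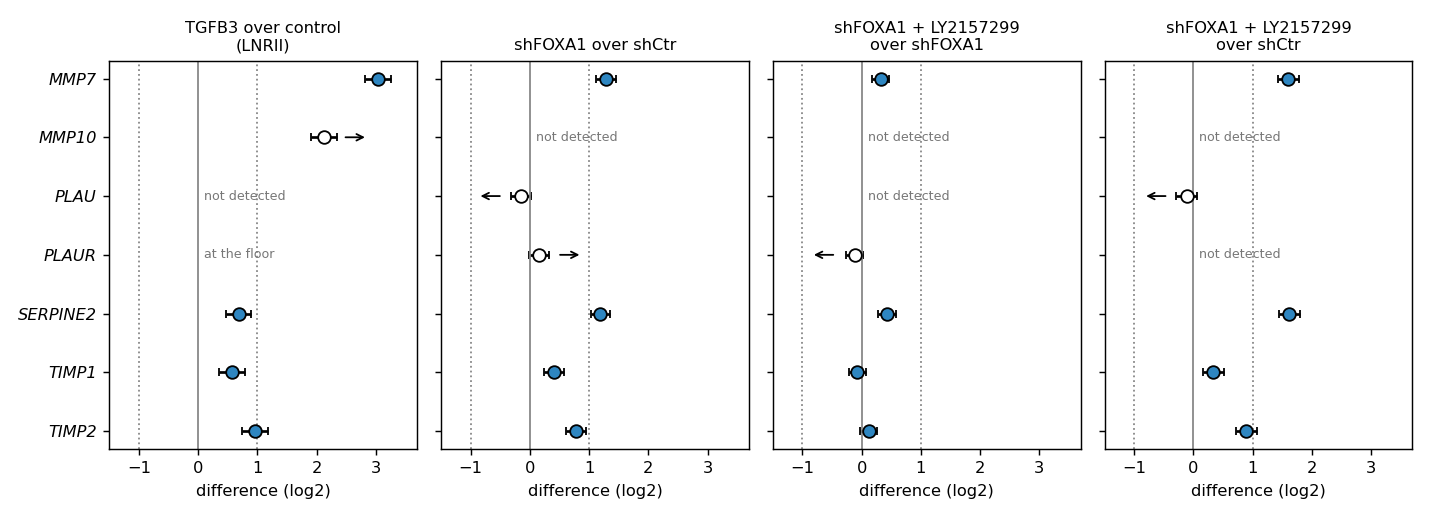
Log2 difference of each member with a detected probe in the 4 comparisons, brightest probe per gene, with bars of 1 probe SD. Open circles with arrows are bounds, and dotted lines mark 2-fold. MMP7 is past 2-fold with TGFB3 (3.04), with shFOXA1 (1.28) and with shFOXA1 and LY2157299 against shCtr (1.60), and no member drawn with a filled point is past 2-fold with LY2157299 against shFOXA1.

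LY2157299 in the knockdown cells went with less than a 2-fold difference in the 4 members detected on both arrays. Of 5 members measured, PLAUR being a bound, 0 could be called higher and 0 lower by 2-fold, where 0.0545% of all 11002 genes measured were higher and 0.209% lower. At 1.5-fold 0 members were apart either, where 0.636% of all genes were higher and 1.24% lower. MMP7 read 10.12 with LY2157299 and 9.80 without it, a difference of 0.32 or 2.17 times the probe SD, and its second probe gave 0.20. SERPINE2 read 7.61 with LY2157299 and 7.18 without it, a difference of 0.43 or 2.91 times the probe SD. MMP7 and SERPINE2, 2-fold higher after knockdown, were thus no lower on the array with the inhibitor.

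The TIMP genes differed by less than the probe SD with LY2157299 on their brightest probes. TIMP2 read 8.32 with LY2157299 and 8.20 without it, a difference of 0.12, while its dimmer probe gave -0.18. TIMP1 read 5.15 with LY2157299 and 5.22 without it, a difference of -0.07. For PLAUR, the probe detected with shFOXA1 was not detected with LY2157299, which gives -0.12 or lower, and another probe did the reverse, at 4.72 with LY2157299 (detection p of 0.00909), which gives at least 0.05. The PLAUR probes therefore disagreed on the direction at levels near the limit.

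Against the control hairpin, the cells with knockdown and LY2157299 had MMP7 higher by 1.60 (3.03-fold) and SERPINE2 higher by 1.62 (3.08-fold). These are 2 of 5 members measured, with 0 called lower and PLAU being a bound, against 0.917% of all 11019 genes higher and 0.517% lower by 2-fold. At 1.5-fold, 3 members were higher, TIMP2 being added, and 0 lower, where 3.04% of all genes were higher and 2.34% lower. TIMP2 stood at 0.89 on its brighter probe, TIMP1 at 0.33 and PLAU at -0.11 or lower. The dimmer TIMP2 probe gave 0.11, and the mean over detected TIMP2 probes was 0.50, short of 1.5-fold. Without background correction SERPINE2 was just short of 2-fold, at 0.98, and TIMP1 stood at 0.10. This comparison shares the shCtr array with that of the knockdown alone and the LY2157299 array with that of the inhibitor, so the 3 sets of values are not independent of each other.

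**Figure D4:**
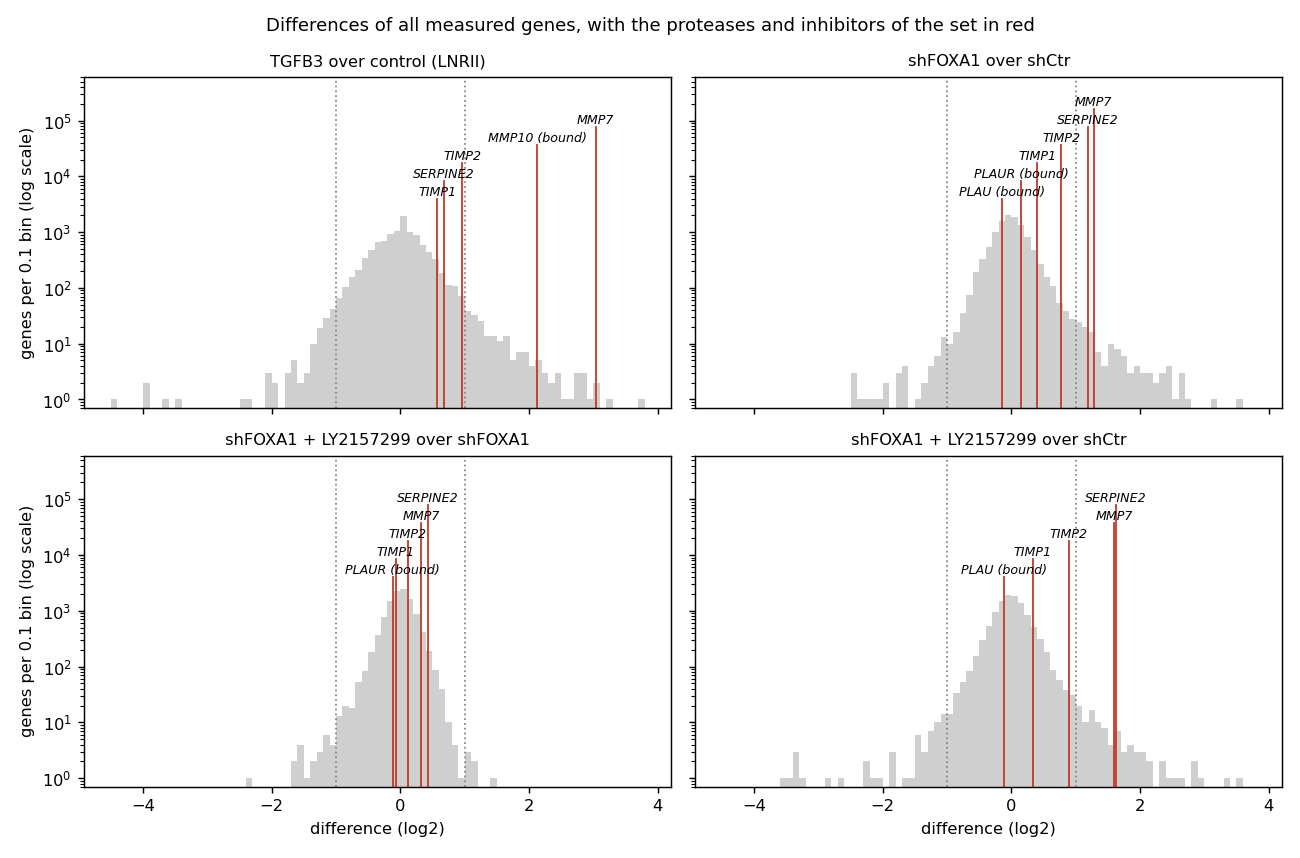
Distribution of the log2 differences of all measured genes in each comparison, in bins of 0.1 on a log count axis, with the measured members as red lines and dotted lines at 2-fold. With TGFB3, MMP7 stands at 3.04 with 2 genes beyond it, and with LY2157299 against shFOXA1 the 4 members detected on both arrays lie between -0.07 and 0.43.

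The order of the 5 levels differed between the members detected on all arrays. MMP7 was highest with TGFB3 (11.62), followed by shFOXA1 with LY2157299 (10.12), shFOXA1 (9.80), the LNRII control (8.59) and shCtr (8.52). The last pair, the unstimulated cultures of either line, differed by 0.07, less than the probe SD of 0.27 for that pair. SERPINE2 followed the line first: TGFB3 (9.05), the LNRII control (8.37), shFOXA1 with LY2157299 (7.61), shFOXA1 (7.18) and shCtr (5.99), with every step larger than its probe SD. Its unstimulated level was thus 8.37 in LNRII and 5.99 in LNCaP with shCtr, cultures that differ in the added receptor, the hairpin and the day. On its brighter probe, TIMP2 had an upper set of TGFB3 (8.46), shFOXA1 with LY2157299 (8.32) and shFOXA1 (8.20). The lower set was the LNRII control (7.50) and shCtr (7.43), and neighbours within each set differed by less than the probe SD. The dimmer TIMP2 probe did not show these sets. It read 5.28 with shFOXA1, 5.10 with shFOXA1 and LY2157299, 5.00 with shCtr and 4.98 with TGFB3, and was not detected in the LNRII control (4.57). TIMP1 was highest with TGFB3 (5.75) and lowest with shCtr (4.81), and the 3 levels between them, from 5.15 to 5.22, did not differ beyond the probe SD.

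Genes with the most similar profiles were sought among 11801 other genes by the Euclidean distance between profiles over the 5 arrays, each centred on its own mean, for the 4 members whose level spanned at least 1. Nearest to MMP7 were the tubulin gene TUBB3 (distance 0.79), BICD1 (0.86) and the laminin chain gene LAMB3 (0.87). Nearest to MMP10 were TGFBI, a matrix protein named for its induction by TGF-beta (0.05), TRAF5 (0.25) and SORL1 (0.37). The small distance of TGFBI rests on 1 value, as both genes were at the detection floor on the other 4 arrays and TGFBI read 7.21 with TGFB3. Nearest to SERPINE2 were the chemokine receptor gene ACKR3 (0.73), ST6GAL1 (0.79) and SH3PXD2A, whose protein is a scaffold of invadopodia (0.96). Nearest to TIMP2 were TNFRSF12A, the receptor of TWEAK (0.15), UBA7 (0.16) and GPR137B (0.16). LAMB3 was at the detection floor in the LNRII control and shCtr, TRAF5 on all LNCaP arrays and UBA7 in the LNRII control. With 5 arrays such likeness is a description only.

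MMP7 and MMP10 belong to a run of 9 neighbouring MMP genes on chromosome 11, in the order MMP7, MMP20, MMP27, MMP8, MMP10, MMP1, MMP3, MMP12 and MMP13. This run was chosen after its values had been seen. In it 5 genes had a detected probe, and with TGFB3 each of these 5 was above the LNRII control: MMP7 by 3.04, MMP10 by at least 2.13, MMP12 by at least 0.997, MMP13 by at least 0.68 and MMP3 by at least 0.39. MMP10, MMP3 and MMP13 were detected on the TGFB3 array alone and so could not have been called lower there. MMP12, which encodes macrophage elastase, read 6.03 with TGFB3 and 4.87, not detected, in the LNRII control. In LNCaP it read 6.04 with shFOXA1 and LY2157299, 6.36 with shFOXA1 and 5.09 with shCtr, and its second probe put these 3 cultures in the same order. The MMP12 difference was 1.28 after knockdown, the same size as that of MMP7, and -0.33 with LY2157299 against shFOXA1, where MMP7 stood at 0.32. MMP20, MMP27, MMP8 and MMP1 were not detected on any array. Probe sequences were not used here, and whether a probe also binds mRNA of a related MMP gene was not tested.

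Of 20 further metalloproteinase genes on the array, 9 were detected on at least 1 array. With TGFB3, 0 of the 9 could be called 2-fold apart, but 3 of them, MMP12, MMP13 and MMP3, are lower bounds and 3 more gave neither a value nor a bound, so larger differences were not measurable there. After knockdown 1 of 5 was higher, MMP12, and with LY2157299 against shFOXA1 0 of 5 could be called, 1 being a bound, with MMP15 at -0.17 and MMP24 at -0.15. MMP16, which encodes a membrane-bound enzyme, was singled out after its values were seen: it read 8.13 with TGFB3 and 8.40 in the LNRII control. In LNCaP it read 6.06 with shFOXA1 and LY2157299, 5.93 with shFOXA1 and 5.88 with shCtr, so both LNRII arrays stood above all 3 LNCaP arrays.

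Among 14 further genes of the plasminogen system, 12 have a named probe and 4 were detected. PLAT and PLG, which encode the tissue plasminogen activator and plasminogen, were not among the detected genes. The detected ones include S100A10 and ANXA2, whose proteins form a complex that binds plasminogen at the cell surface, and both were 2-fold higher with TGFB3. S100A10 read 9.40 with TGFB3 and 7.46 in the LNRII control, a difference of 1.93, and its second probe read 9.02 and 7.09. ANXA2 read 6.55 with TGFB3 and was not detected in the control, which gives at least 1.52. After knockdown ANXA2 was higher by 1.33, with 6.18 against 4.85, and S100A10 stood at 0.73. With LY2157299 against shFOXA1, ANXA2 stood at -0.42 and S100A10 at -0.07, and against shCtr ANXA2 stood at 0.90 and S100A10 at 0.65. The ANXA2 values rest on 1 of 3 probes, since the other 2 were detected on no array. PLGRKT, a plasminogen receptor gene, stood at -0.45 with LY2157299 and shFOXA1 against shCtr, and ENO1, an enolase gene whose protein also binds plasminogen, at -0.13 with LY2157299 against shFOXA1.

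Of 10 further inhibitors and activating convertases, 5 were detected. RECK encodes a membrane-anchored inhibitor of metalloproteinases. Its brighter probe read 6.10 with TGFB3 and 4.94, not detected, in the LNRII control, a difference of at least 1.07, and its second probe read 5.31 against 4.36, also not detected. FURIN, a convertase that cuts the MMP14 precursor, was not detected in LNRII and stood at -0.25 after knockdown, and PCSK6 stood at -0.15 after knockdown and -0.19 with LY2157299 against shFOXA1. In this list 1 of 3 measured genes, RECK, was 2-fold higher with TGFB3, where 1.87% of all genes were. The brighter RECK probe was detected on the TGFB3 array alone, so RECK could not have been called lower there. In each of the 3 LNCaP comparisons, 0 of 4 measured genes were 2-fold apart.

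Among 6 detected membrane serine proteases and their inhibitors, 1 was 2-fold higher with TGFB3, TMPRSS2, at 11.96 against 10.95 in the LNRII control (1.01). All 6 lay above 0 there, the smallest difference being 0.14, where 5114 of all 10711 genes and 8 of 9 cathepsins and cystatins did. After knockdown 0 of 6 were apart, with ST14, the matriptase gene, at 0.65, HPN, the hepsin gene, at 0.23 and TMPRSS2 at -0.15. With LY2157299 against shFOXA1, HPN stood at -0.39 and TMPRSS2 at -0.34. Of 9 detected cathepsins and cystatins, 0 were 2-fold apart in any of the 4 comparisons. The cysteine protease gene CTSV stood at -0.65 with TGFB3, -0.68 after knockdown and 0.52 with LY2157299 against shFOXA1, and it was the 1 gene of the list below 0 with TGFB3. CTSB stood at 0.53 with TGFB3, and CTSL at 0.65 after knockdown and -0.27 with LY2157299 against shFOXA1. Of 27 ADAM and ADAMTS genes, 7 were detected and 0 could be called 2-fold apart in any comparison, at most 1 in each being at the detection floor, with ADAMTS1 at 0.34 with TGFB3 and ADAM10 at 0.34 after knockdown.

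**Figure D5:**
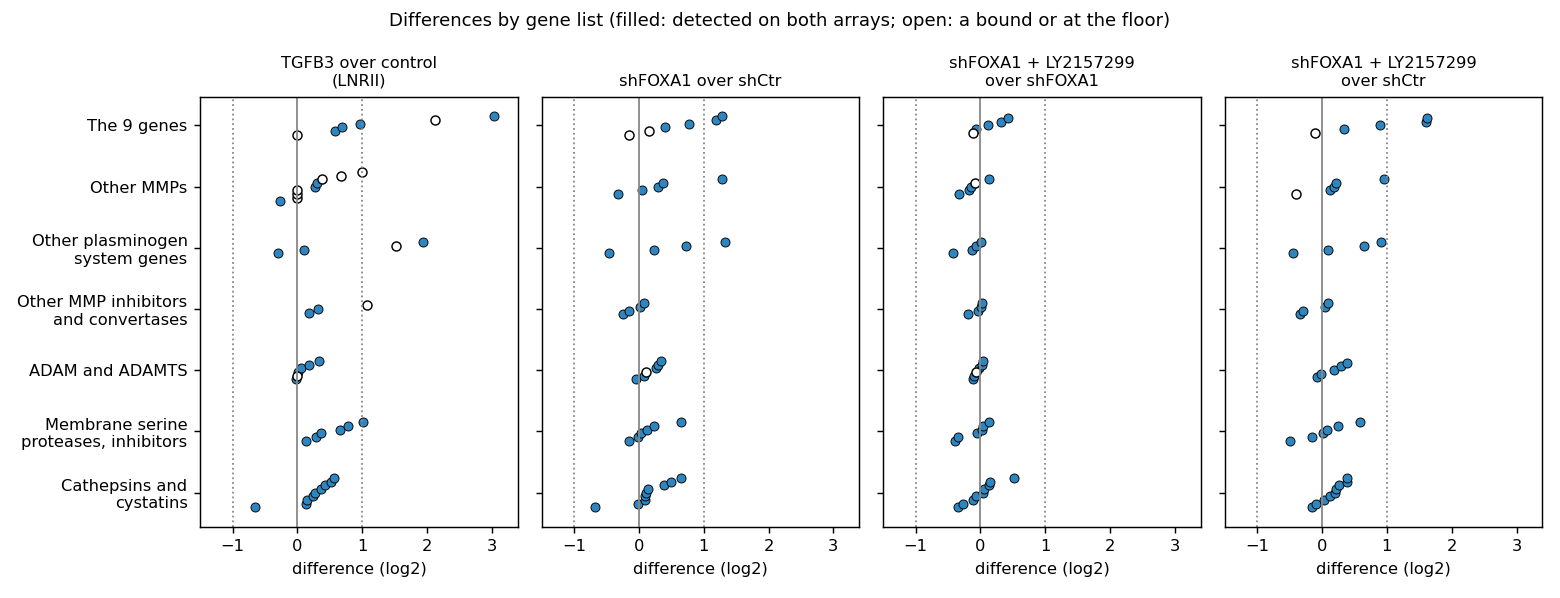
Log2 differences of the 9 genes and of 6 further lists of protease and inhibitor genes in the 4 comparisons, 1 point per gene, with open points for bounds and for genes at the detection floor and dotted lines at 2-fold. Over the 6 further lists, 4 of 37 measured genes are called 2-fold higher with TGFB3 (1.87% of all genes) and 2 of 34 after knockdown (1.11%). With LY2157299 it is 0 of 34 against shFOXA1 (0.0545%) and 0 of 33 against shCtr (0.917%). In all 4 comparisons 0 are called 2-fold lower, where 1.16%, 0.377%, 0.209% and 0.517% of all genes are. In the same order, 9 of the 37, 1 of the 34, 2 of the 34 and 1 of the 33 are bounds or at the floor. Of the 4 called with TGFB3, ANXA2 and RECK are bounds, as neither was detected in the LNRII control.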

How the data were processed

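RNA was measured in 5 cultures on 5 Illumina bead arrays of 47306 probes. The scanner table holds the mean bead intensity of each probe, which the authors deposited as non-normalized, and the lowest is 68.7, so there are no values at or below 0. Beside each intensity stands a detection p-value, as deposited by the authors. The authors also deposited processed intensity values, of which 25.3% are below 0. The medians per array were 4.7 on the LNRII and 4.5 on the LNCaP arrays, and they look linear, background-subtracted and quantile normalized separately for LNRII and LNCaP, with the method not given in the sources used here. Per the submitters' processing notes GenomeStudio was used.

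The main values came from limma 3.58.1 in R 4.3.3 (neqc: normexp correction with the background level inferred from the detection p-values, offset 16, quantile normalization over all 5 arrays, log2). Each gene is read by its brightest probe, by mean over the arrays, among those detected at p below 0.01 on at least 1 array (11808 genes). Comparisons take the genes detected on either of their arrays. Symbols came from the platform table, and Entrez identifiers of 30068 of the 30107 probes with 1 symbol were found in the RefSeq table of GRCh38.p14, with 0 symbols changed. Another 8 probes have several symbols and 17191 none. The array has no named genome build, so gene coordinates are not given, and promoter windows are those of the RefSeq table. Calculations were tested on simulated arrays with known changes. Only bright probes were changed there, so changes near the detection floor and differences given as bounds were not tested in this way. Tables and figures were made in Python 3.11.15 with numpy 2.4.6, matplotlib 3.10.9 and pandas 2.3.3.

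The members, the 6 further gene lists, the motifs and the alternatives were chosen with earlier results of these data known. Named genes are all 9 members with every probe, FOXA1, the genes of each list that were 2-fold apart or else up to 3 with the largest absolute difference, and the 3 genes nearest in profile to each member spanning at least 1, with some of these given as ranges or counts. The MMP run on chromosome 11 and MMP16 were added after their values were seen. The processing alternatives were the background correction, the normalization, the offset, the authors' values, the detection threshold, the probe rule and the fold rule.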

Additional observations from a re-analysis of the deposited data

How the results depend on the processing

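The 8 counts of members 2-fold higher or lower were recomputed under 8 alternatives, and 60 of 64 values stayed within 1.5 times the main one. At 1.5-fold, 4 members were higher with TGFB3 instead of 2, where 6.6% of all genes were. After knockdown 1 member was higher instead of 2 without background correction, and 1 with an offset of 50, and against shCtr with LY2157299 1 instead of 2 without background correction. In these 3 cases MMP7 was past the rule and SERPINE2 was not. Of 152 recomputed log2 differences of single members, 129 moved by less than the probe SD, 23 by more, and 150 kept their sign or were 0. The other 2 were PLAUR and TIMP2 with LY2157299 against shFOXA1, at 0.05 and -0.03 as means over detected probes. MMP7 with TGFB3 ranged from 2.82 to 3.05, MMP10 from at least 1.04 to at least 2.89, and SERPINE2 after knockdown from 0.68 to 1.38. The count of all genes 2-fold apart, in the order TGFB3, knockdown, LY2157299 against shFOXA1 and against shCtr, was 324, 166, 29 and 158. It was 117, 64, 6 and 57 without background correction and 173, 90, 14 and 80 with an offset of 50. With the authors' values it was 571, 61 and 254 where it moved by over 1.5 times (TGFB3 and both LY2157299 comparisons), and at 1.5-fold 1418, 573, 206 and 593. With TGFB3, 73.5% of the apart genes were higher without background correction, against 61.7%. The cause of these shifts was not tested, beyond the smaller fold that a lower correction or a larger offset leaves by construction. No paired analysis was possible because each group has 1 array and the labels give no replicate numbers.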
